A study of Mus musculus with 6 samples.

Results

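The 7 genes described here write, copy, read or remove DNA methylation, or regulate a microRNA family in the same early embryonic cells: Dnmt1, Dnmt3a, Dnmt3b, Dnmt3l, Tet1, Uhrf1 and Lin28a. Every probe set that the array annotation gives to 1 of these genes alone was taken, whatever its signal, which gave 19 of the 45037 probe sets other than controls, for 7 of 18193 named genes. Of these, 17 had a mean signal high enough to be tested, out of 27022 tested probe sets in all. All 3 probe sets of Dnmt1, all 5 of Dnmt3a, both of Dnmt3b, both of Uhrf1 and both of Lin28a were tested, as were 3 of the 4 of Tet1. The single probe set of Dnmt3l was too dim to test.

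RNA came from day 6 embryoid bodies of the mouse Hoxb4i embryonic stem cell line, which carries a Hoxb4 gene that doxycycline switches on. Embryoid bodies are floating aggregates in which stem cells differentiate into many cell types at once. All 6 samples were seeded at 3500 cells per ml in medium with fetal calf serum, transferrin, monothioglycerol, ascorbic acid and glutamine. The 3 uninduced samples received no doxycycline, and the 3 induced samples received doxycycline at 2 µg per ml from day 4 for 48 h. The sample titles give 1 sample of each kind as replica A, B and C, and each of these 3 letters is called an experiment here. For each sample 1 Affymetrix Mouse Genome 430 2.0 array was hybridised. The uninduced samples carry the same inducible gene, no sample of the parental line without it was among the 6, and a single line was used. Signals are MAS5 intensities, which have no fixed unit, so tests and differences compare each probe set with itself across arrays; sums over marker probe sets are given as a description and rank no gene against another. The number of arrays, 3 per treatment and 2 per experiment, limits the precision of every comparison.

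DNA methylation in mammals sits mostly on cytosines of CpG dinucleotides. Dnmt3a and Dnmt3b place it on unmethylated DNA, with Dnmt3l as a partner that has no catalytic activity of its own. Dnmt1 copies it onto the new strand after replication, guided there by Uhrf1, which binds hemimethylated CpG sites. Tet1 oxidises the methyl group and so starts its removal. Lin28a is an RNA-binding protein of stem cells and early embryos that blocks the maturation of let-7 microRNAs, which are known to repress Hmga2, Myc family and cyclin mRNAs among others. Dnmt3b, Dnmt3l, Tet1 and Lin28a are all known for high expression in early embryonic cells and for a decline as these differentiate.

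Sequence around the starts of these genes shows how the methylation enzymes themselves differ in CpG content. The stretches upstream of the outermost annotated start of Dnmt3b, Uhrf1 and Dnmt3l are given. Dnmt3b differed between experiments by both of its probe sets, Uhrf1 had the member probe set of smallest range, and Dnmt3l was hardly detected. All are RefSeq sequence on GRCm38.p6, on the plus strand, with CpG dinucleotides in capitals. The Dnmt3b stretch is chr2:153649199-153649410, the Uhrf1 stretch chr17:56303087-56303336 and the Dnmt3l stretch chr10:78042037-78042286, each ending 1 base before the gene's annotated start.
Dnmt3b upstream: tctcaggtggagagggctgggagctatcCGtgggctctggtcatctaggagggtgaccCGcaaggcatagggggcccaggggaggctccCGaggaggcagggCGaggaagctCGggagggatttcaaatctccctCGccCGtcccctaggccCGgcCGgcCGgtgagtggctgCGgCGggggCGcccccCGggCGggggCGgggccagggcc
Uhrf1 upstream: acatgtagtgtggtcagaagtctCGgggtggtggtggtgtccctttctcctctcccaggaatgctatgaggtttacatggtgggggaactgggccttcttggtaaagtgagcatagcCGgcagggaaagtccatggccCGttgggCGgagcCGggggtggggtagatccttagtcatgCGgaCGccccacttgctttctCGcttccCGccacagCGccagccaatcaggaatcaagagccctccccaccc
Dnmt3l upstream: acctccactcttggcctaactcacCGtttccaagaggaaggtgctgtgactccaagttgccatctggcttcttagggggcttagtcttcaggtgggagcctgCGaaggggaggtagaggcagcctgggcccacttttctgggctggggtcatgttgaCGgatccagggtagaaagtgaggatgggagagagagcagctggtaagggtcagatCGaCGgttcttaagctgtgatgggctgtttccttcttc
The Dnmt3b stretch holds 16 CpG in 212 bases, the Uhrf1 stretch 10 in 250 bases and the Dnmt3l stretch 5 in 250 bases. RefSeq promoter windows of 300 bases, from 250 before to 50 after each annotated start, were available for all 7 genes as 14 windows. Over 32851 mouse promoters the median window held 7 CpG. The only Dnmt3b window held 30 and the only Tet1 window 17, while the 3 Dnmt3l windows held 6, 4 and 3. Dnmt3a windows held 46, 47 and 18, Dnmt1 windows 2, 12 and 33, Uhrf1 windows 12 and 33, and the Lin28a window 10. The letters TTCCCGC, a form of the E2F site of genes used in S phase, were searched on both strands and occurred in 4.6% of all promoters. Of the 14 windows only the first one of Uhrf1 held it, as 1 match, within the stretch printed above. The letters GGGCGG, a GC box, occurred in 35.7% of promoters and CCAAT in 37.4%. The Dnmt3b window held 4 GC boxes, and the first Uhrf1 window held 3 CCAAT matches. A match of letters is a description and shows no binding.

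Lin28a acts on RNA, and its known handle is the GGAG motif in the loop of let-7 hairpins. The mature let-7g is printed with its seed, bases 2 to 8, in capitals, and the let-7g hairpin with GGAG in capitals. Both are RefSeq sequence on GRCm38.p6, plus strand, the mature form at chr9:106178846-106178867 and the hairpin at chr9:106178840-106178927. The arrays measured the mRNAs of this axis and not the microRNA.
mmu-let-7g-5p: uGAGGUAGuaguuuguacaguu
let7g hairpin: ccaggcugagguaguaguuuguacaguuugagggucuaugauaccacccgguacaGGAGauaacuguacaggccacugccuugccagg

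One array stood apart in RNA quality. Control probe sets read Actb near both ends of its mRNA, and their 3′ over 5′ signal ratio, which rises as RNA degrades, was 2.88 for uninduced A and 1.26 to 1.48 for the other 5 arrays. For Gapdh it was 1.08 there and 0.834 to 0.903 elsewhere. Values without this array are given beside the main results it touches. Hoxb4, the induced gene, was read by 2 probe sets, both higher on the induced array in 3 of 3 experiments. The first, 1451761_at, gave 46.5, 119.8 and 113.5 on the uninduced arrays of A, B and C and 116.4, 129.5 and 175.5 on the induced ones. The second, 1460379_at, gave 78.2, 253.0 and 27.6 uninduced and 136.3, 261.4 and 150.7 induced. The treatments overlapped for both, the log2 differences were 0.57 and 0.86, and neither passed limma's test, with an adjusted p of 1 (0.93 with the experiment as a block). In experiment B the increases were only 0.10 and 0.04. Whether either probe set reads the inducible copy could not be told from the files.

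Marker genes of cell types separated the experiments, and their sums are given here as a description of the arrays on which the members were read. Signals of the 12 pluripotent and epiblast markers summed to 10790 and 7923 in experiment A (uninduced, then induced), to 2140 and 1745 in B, and to 13345 and 12914 in C. Among them Otx2 was 26.9 and 35.5 in B against 2542 to 3861 in A and C. Neural marker sums were 2299 and 2095 in A, 525 and 259 in B, then 10801 and 11271 in C. Blood marker sums were 787 and 3202 in A, 37141 and 26748 in B, then 1891 and 2003 in C; the embryonic globin Hba-x read 7278 and 5037 in B against 84.0 to 469.8 elsewhere. Endothelial sums were 306 and 713, 3722 and 4235, and 468 and 288 in the same order, and mesenchymal sums were 6252 and 4093, 24227 and 24861, and 3698 and 3246. Endoderm sums were 6701 and 7764 in A, 12882 and 12328 in B, then 538 and 594 in C; the visceral endoderm gene Ttr read 91.2 and 159.7 in C against 3858 to 11110 elsewhere. Early mesoderm sums ran from 661 to 2887, cardiac sums from 505 to 3992 and primordial germ cell sums from 422 to 742 over the arrays. No marker was at or under 18.8, the offset of the log scale, on all 6 arrays. By limma's F test over experiments, 5 of 11 tested pluripotent, 7 of 8 neural, 3 of 4 early mesoderm, 3 of 7 blood, 5 of 6 endothelial, 3 of 6 cardiac, 6 of 6 endoderm, 4 of 5 mesenchymal and 0 of 4 primordial germ cell markers differed. Over 12452 genes, with 1 representative probe set each, 14% differed by the same test. In bulk RNA such as this, fewer cells of a type and less RNA per cell cannot be told apart.

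**Figure D1:**
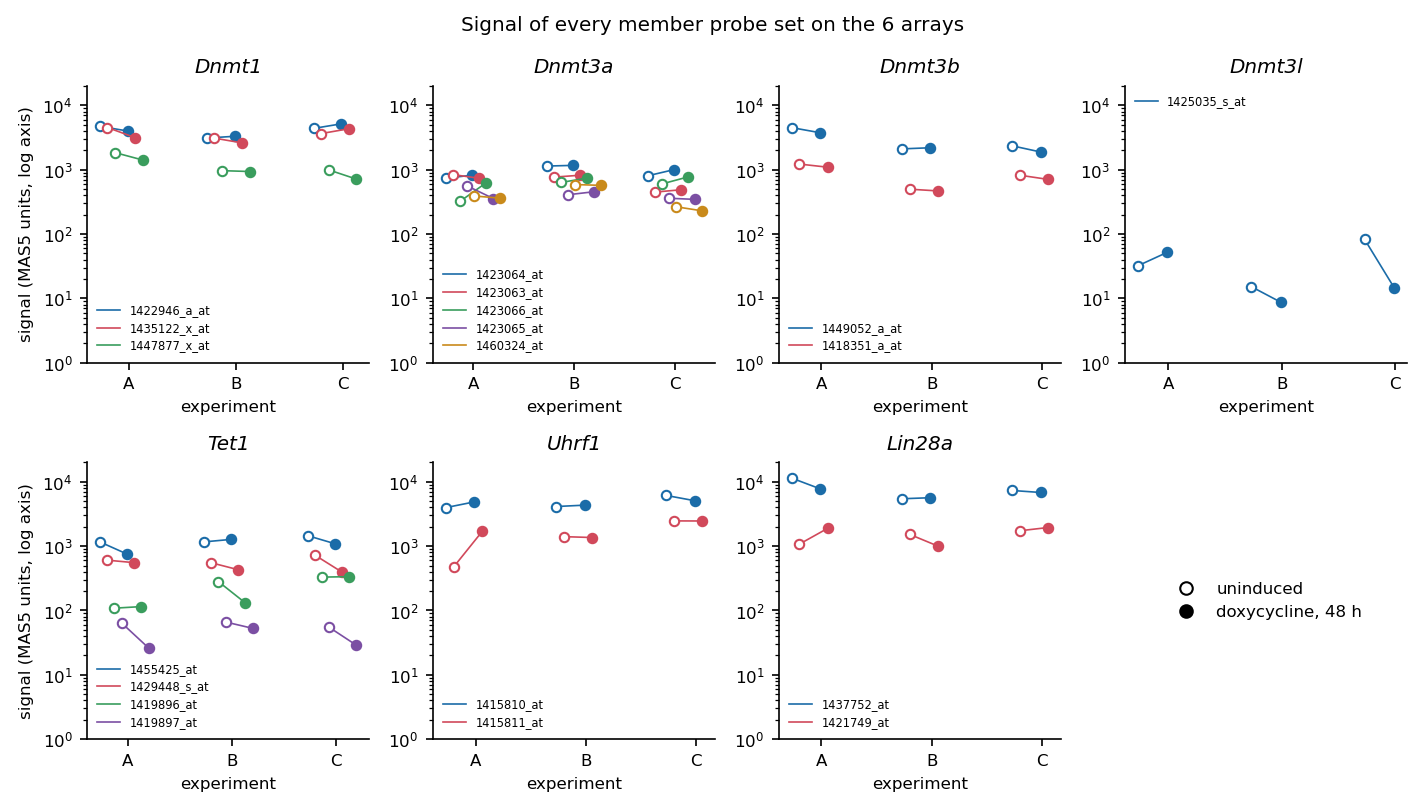
Signal of all 19 probe sets of the 7 genes on the 6 arrays, on a log axis, by experiment; open circles are uninduced, filled circles induced, and a line joins the arrays of 1 experiment. Most lines are short and nearly flat, Dnmt3b sits higher in experiment A, Uhrf1 1415811_at drops to 473 on the uninduced array of A, and Dnmt3l never passes 82.1.

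Dnmt1, the maintenance methyltransferase, was far above the testing minimum on all arrays, and its treatments overlapped. Its gene lies at chr9:20907206-20959888. Its brightest probe set, 1422946_a_at, gave 4725, 3102 and 4384 on the uninduced arrays of A, B and C. It gave 3987, 3304 and 5164 on the induced arrays. The uninduced mean was 4070 ± 856 and the induced mean 4152 ± 941 (SD, n = 3), a log2 difference of 0.03 with a 95% interval from -0.53 to 0.59. The induced array was lower in A and higher in B and C. Experiment B was the lowest in both treatments, 0.57 log2 units under C (interval 0.17 to 0.97, limma adjusted p = 0.0852) and 0.44 under A (adjusted p = 0.18). The second probe set, 1435122_x_at, ran from 2608 on the induced array of B to 4525 on the uninduced array of A. It placed B lowest too, by 0.48 against C and 0.41 against A, and neither difference passed the test. The third, 1447877_x_at, behaved otherwise: it read 1844 and 1414 in A, 965 and 936 in B, then 993 and 713 in C (uninduced, then induced). Probe sets ending in _x_at can also match other transcripts, and 1447877_x_at differed between experiments as described below.

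Uhrf1, which brings Dnmt1 to newly replicated DNA, had the smallest range of the members by its brightest probe set. Its gene lies at chr17:56303337-56323486. The signals of 1415810_at were 3977, 4133 and 6155 uninduced in A, B and C and 4886, 4342 and 5093 induced. The treatment means were 4755 ± 1215 and 4773 ± 388 (SD, n = 3), and the log2 difference was 0.03 (interval -0.46 to 0.52). Its highest and lowest arrays, both uninduced, were 0.63 log2 units apart, which is percentile 19.5 of the ranges of all tested probe sets. Its mean signal was at percentile 94.6 of all tested, and ranges were not compared at like signal. The other probe set, 1415811_at, had the widest range of the tested member probe sets, 2.34. It read 473, 1406 and 2472 on the uninduced arrays and 1694, 1362 and 2463 on the induced ones. Within experiment A it was 1.80 higher on the induced array, while in B and C the differences were -0.04 and -0.01. The low value belonged to uninduced A, whose Actb ratio was high, and the brighter probe set was lowest there too. The doxycycline difference of 1415811_at, 0.58 (interval -0.70 to 1.87), did not pass the test, and without uninduced A it was -0.06. The part of RNA quality in it was not tested.

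Dnmt3a, a de novo methyltransferase with its gene at chr12:3801559-3914443, was read by 5 probe sets that the annotation ties to 1 transcript accession. They did not order the arrays alike. The brightest, 1423064_at, gave 737, 1138 and 804 uninduced in A, B and C and 821, 1166 and 1001 induced, so that B was highest in both treatments. The induced array was higher in all 3 experiments, by 0.15, 0.03 and 0.31, and the mean difference of 0.17 (interval -0.43 to 0.76) did not pass the test. The probe set 1423066_at was also higher on the induced array in all 3 experiments. It read 321 and 627 in A, 632 and 742 in B, then 600 and 773 in C, a mean log2 difference of 0.50 (interval -0.21 to 1.21). With the experiment as a block the interval was 0.02 to 0.99 and the unadjusted p 0.0438, while limma's adjusted p was 0.93. Without uninduced A the difference was 0.20. The range of 1423063_at was 448 to 838, with both arrays of C at the low end. The range of 1423065_at was 345 to 560, with uninduced A highest. The dimmest, 1460324_at, read 390 and 360 in A, 587 and 570 in B, then 265 and 229 in C, so that the 3 experiments did not overlap.

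Dnmt3b, the other de novo enzyme and the one best known from epiblast-stage cells, was the member whose tested probe sets were all called as different between experiments. Its gene lies at chr2:153649411-153687730. The signals of 1449052_a_at were 4505 and 3747 in experiment A, 2104 and 2192 in B, then 2355 and 1884 in C (uninduced, then induced). Both arrays of A lay above all 4 others, and B and C overlapped. The dimmer probe set 1418351_a_at read 1222 and 1091 in A, 497 and 467 in B, then 821 and 705 in C, so that here C lay between the others. The treatments overlapped for both. For 1449052_a_at the uninduced mean was 2988 ± 1320 and the induced mean 2608 ± 999 (SD, n = 3), a log2 difference of -0.17 (interval -1.02 to 0.67).

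Dnmt3l, the cofactor of the de novo enzymes, was near the floor of the arrays. Its gene lies at chr10:78042287-78063622. Its only probe set, 1425035_s_at, gave 31.9, 15.2 and 82.1 on the uninduced arrays of A, B and C and 51.8, 8.7 and 14.6 on the induced ones. Its mean over the arrays, 34.1, was under the minimum of 60.5 set for testing, and 3 of the 6 signals were under the offset of 18.8. The induced array was higher in A and lower in B and C, by 0.48, -0.31 and -1.60, and no test was made. At such signals a MAS5 value does not separate a low transcript from background.

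Tet1, which oxidises methylated cytosine, was read by 4 probe sets at chr10:62804570-62887469 and had lower treatment means after doxycycline in each of them, without a call. The brightest, 1455425_at, gave 1163, 1165 and 1457 uninduced and 755, 1273 and 1095 induced in A, B and C. The mean log2 difference was -0.30 (interval -0.89 to 0.29), with B in the other direction. The probe set 1429448_s_at read 606, 553 and 726 uninduced and 554, 431 and 396 induced. It was lower on the induced array in all 3 experiments, by 0.12, 0.35 and 0.84 log2 units in A, B and C, with a mean difference of -0.44 (interval -1.01 to 0.14). The treatments touched only through 1 pair: the induced array of A, at 554, stood just above the uninduced array of B, at 553. The third tested probe set, 1419896_at, read 109 and 115 in A, 282 and 131 in B, then 330 and 336 in C, so that its treatment difference of -0.30 came from B alone. The untested 1419897_at gave 63.7, 66.2 and 54.4 uninduced and 26.0, 52.8 and 28.8 induced. It is the only one of the 19 member probe sets whose treatments did not overlap, at signals around the testing minimum. Treatments did not overlap for 4.34% of all tested probe sets, and the share among untested ones was not taken.

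Lin28a, the let-7 regulator, was also far above the testing minimum on all arrays. Its gene lies at chr4:134003330-134019196. The signals of 1437752_at were 11429 and 7768 in A, 5458 and 5668 in B, then 7351 and 6837 in C (uninduced, then induced). Its highest array was again the uninduced one of A, and both arrays of B were the lowest. The uninduced mean was 8079 ± 3051 and the induced mean 6758 ± 1052 (SD, n = 3). The log2 difference was -0.20 (interval -0.85 to 0.44), and the direction was lower in A and C and 0.05 higher in B. The second probe set, 1421749_at, ran from 1000 on the induced array of B to 1951 on the induced array of C, and its differences of 0.81, -0.60 and 0.17 in A, B and C had no common direction.

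The comparison of induced with uninduced arrays, which asks what differed after 48 h of doxycycline in this line, gave no call for any member. Without a parental sample it cannot separate Hoxb4 from doxycycline itself, and neither Hoxb4 probe set passed the test. By limma 0 of the 17 tested member probe sets passed, beside 0 of 27022 over all tested probe sets (0%). At an unadjusted p under 0.05 the counts were 0 of 17 and 138 of 27022. With the experiment as a block the counts of calls were again 0 and 0, the smallest member adjusted p was 0.93, and 1 member, Dnmt3a 1423066_at, had an unadjusted p under 0.05. Of the 17, 7 had a higher induced mean and 10 a lower one, and 6 kept 1 direction in all 3 experiments, next to 26% of all tested probe sets. No tested member had treatments that did not overlap, which held for 4.34% of all tested probe sets. Without uninduced A the doxycycline differences of Dnmt3b 1449052_a_at and Lin28a 1437752_at turned to 0.16 and 0.08. Those of Tet1 1455425_at and 1429448_s_at were -0.35 and -0.46. That fit had no block and kept induced A, so the level of experiment A entered the induced mean only. Without both arrays of A the differences were -0.13, -0.025, -0.14 and -0.595 in the same order. The median size of the member differences was 0.175 log2 units, beside 0.177 for all tested. The median distance from a member's difference to the end of its interval was 0.71, beside 0.81 for all tested. With the experiment as a block, which the pairing of the arrays allows, these distances were 0.42 and 0.56. The interval with the block was -0.51 to 0.16 for Dnmt3b 1449052_a_at and -0.53 to 0.13 for Lin28a 1437752_at. The missing calls do not show that the levels were equal.

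**Figure D2:**
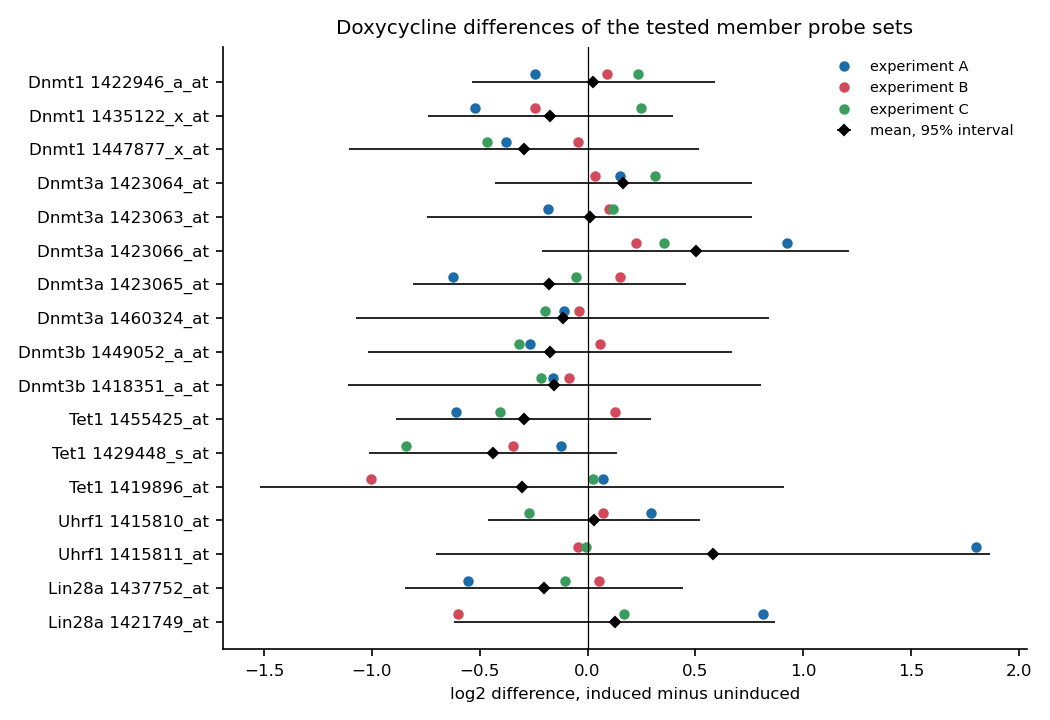
Log2 difference, induced minus uninduced, of the 17 tested member probe sets. Diamonds with lines are means with 95% intervals over 3 arrays per treatment, without the experiment as a block, and coloured points are the single experiments. Every interval spans 0, and the point far to the right, 1.80, is Uhrf1 1415811_at in experiment A.

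Experiments A, B and C, which the labels present as replicates, differed for 4 of the 17 tested member probe sets by limma's F test, beside 11.6% of all tested probe sets (3138 of 27022). With 1 representative probe set per gene the count was 1 of 6 members, Dnmt3b, beside 14% of 12452 genes. In this test the induced and the uninduced array of an experiment serve as its 2 replicates, with doxycycline as a term. The called probe sets were both of Dnmt3b, 1 of Dnmt3a and 1 of Dnmt1. Dnmt3b was higher in A than in B by 0.93 log2 units for 1449052_a_at (interval 0.52 to 1.34, adjusted p = 0.034) and by 1.23 for 1418351_a_at (0.74 to 1.72, adjusted p = 0.0238). These are the 2 members among the calls for A above B, where 1.91% of all tested probe sets were called, and 0 members were called lower in A, beside 2.09%. Against C, Dnmt3b was higher in A by 0.96 for 1449052_a_at (adjusted p = 0.025) and by 0.59 for 1418351_a_at, which was not called (adjusted p = 0.121). The 2 probe sets disagreed on C against B, with -0.03 (interval -0.44 to 0.38) and 0.64 (0.15 to 1.13, adjusted p = 0.108).

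The other calls each rested on 1 probe set of several. Dnmt3a 1460324_at was lower in C than in B by 1.17 (interval 0.61 to 1.74, adjusted p = 0.0225), the only member called lower in C than in B, beside 5.26% of all tested probe sets; none was called higher, beside 4.33%. The other 4 Dnmt3a probe sets were lower in C than in B by 0.01 to 0.74 and were not called. Dnmt1 1447877_x_at was lower in C than in A by 0.93 (interval 0.44 to 1.41, adjusted p = 0.043). With Dnmt3b 1449052_a_at it made 2 members lower in C than in A, beside 4.29% of all tested probe sets; none was called higher, beside 2.52%. The other Dnmt1 probe sets had differences of 0.13 and 0.07 between C and A. Lin28a 1437752_at was 0.76 higher in A than in B (interval 0.35 to 1.16), with an F test adjusted p of 0.0581 and no call. The F test adjusted p was 0.0402 after quantile normalization. With other offsets, other filters or eBayes without trend it ran from 0.0525 to 0.219. The highest signal of 1437752_at was that of uninduced A, and without that array the difference was 0.49. For Tet1 1419896_at and Uhrf1 1415811_at, C was above A by 1.43 and 1.44, with adjusted p of 0.0544 and 0.0752. Without uninduced A these differences were 1.15 and 0.53. The brightest probe sets of the genes had 0.42 and 0.34 for C minus A, and the other tested one of Tet1, 1429448_s_at, had -0.11. The marker sums above moved with the experiments over the same arrays, and their part in these differences was not tested. Dnmt3b in C was near B by 1449052_a_at and between A and B by 1418351_a_at. The pluripotent marker sum was high in A and C and low in B. Its list holds Sox2, shared by pluripotent and neural cells, and neural sums were highest in C. The sum is therefore no measure of pluripotent cells alone.

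These calls depended on single arrays. Without the uninduced array of A the F test adjusted p of Dnmt3b 1449052_a_at was 1.7e-05 and the difference between A and B was 0.86, close to the 0.93 with it. In the same fit 1418351_a_at had 1.22 for A minus B, Dnmt3a 1460324_at -1.17 for C minus B and Dnmt1 1447877_x_at -0.86 for C minus A, and all 3 were called. That fit called 14 of the 17 members, beside 32.4% of all tested probe sets. The call ended without uninduced B, uninduced C or induced C (adjusted p = 0.0654, 0.0532 and 0.066), and held without induced B (0.0413). The call of 1418351_a_at ended without any 1 array of B or C, with adjusted p from 0.0621 to 0.176. Dnmt3a 1460324_at behaved likewise, with adjusted p from 0.184 to 0.24, and Dnmt1 1447877_x_at with 0.108 to 0.173. The 4 calls together became 0 when the variance was not allowed to follow the signal level (adjusted p 0.0746 to 0.13). Dnmt1 1447877_x_at also lost its call under quantile normalization (0.0569), an offset of 1 (0.0541) and no filter (0.0563), and Dnmt3a 1460324_at under no filter (0.0688). For these 4 probe sets the directions of A against B and of C against A were kept in all of these settings.

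**Figure D3:**
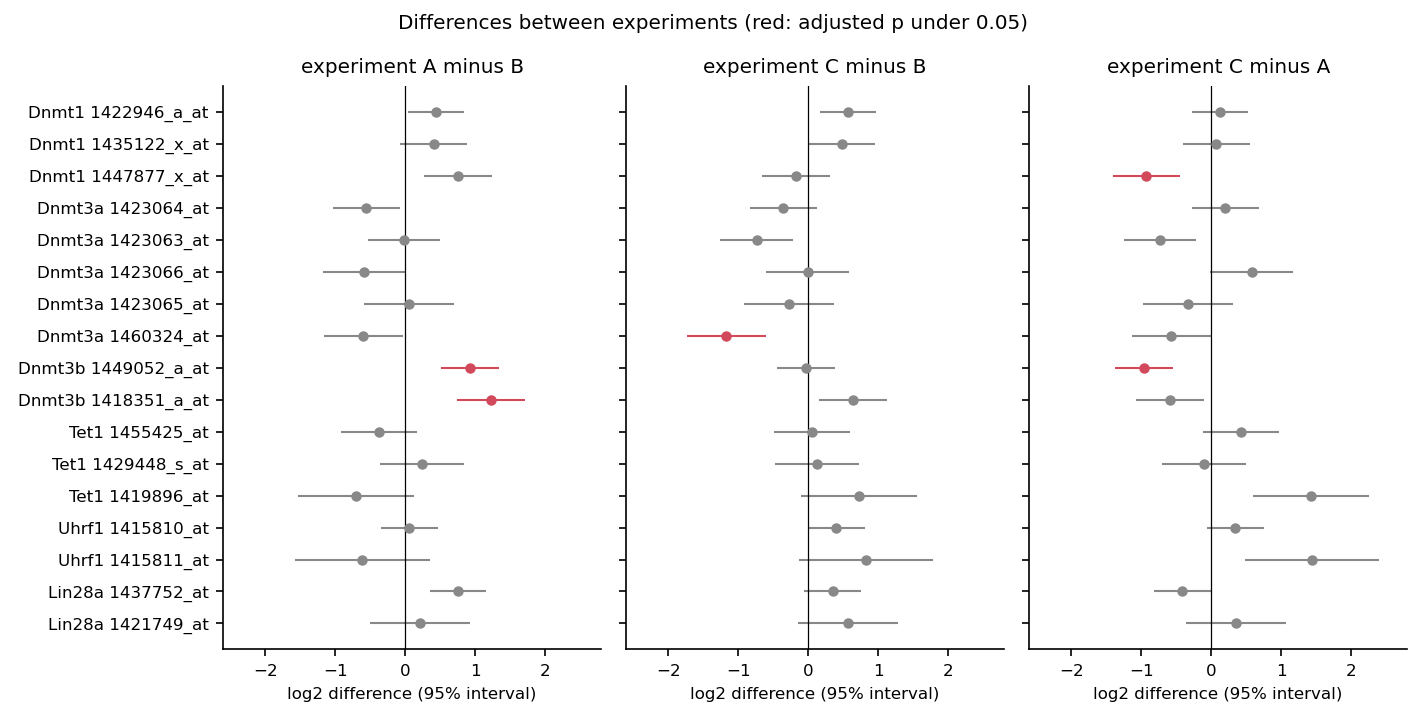
Log2 differences between experiments for the 17 tested member probe sets, each with its 95% interval; red marks an adjusted p under 0.05. Both Dnmt3b probe sets lie to the right of 0 for A minus B (0.93 and 1.23), Dnmt3a 1460324_at lies at -1.17 for C minus B, and the intervals of Uhrf1 1415810_at stay within 0.81 of 0.

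Across the 6 arrays the median range of the members was near that of all tested probe sets, taken at any signal level. Member mean signals lay at percentiles 37 to 96.9 of all tested, and ranges were not compared at like signal. The median range, highest minus lowest array, was 0.95 log2 units over the 17 tested member probe sets and 1.05 over all tested ones, and 9 of the 17 were under the latter. Over the representative probe sets the range was 0.63 for Uhrf1, 0.65 for Dnmt3a, 0.73 for Dnmt1, 0.93 for Tet1, 1.06 for Lin28a and 1.25 for Dnmt3b, with a median of 0.83. The first 3 lie close together and have no firm order, and other probe sets of the same genes reached 2.34 for Uhrf1, 1.29 for Dnmt3a and 1.35 for Dnmt1. The uninduced array of A was the highest array for 7 member probe sets and the lowest for 5, which makes 12 of 17, beside 53.8% of all tested probe sets. Differences between experiments made up a median of 78.1% of the sum of squares over the arrays for members and 65.7% for all tested probe sets. For the Dnmt3b probe sets this share was 93.1% and 97.4%, and for Tet1 1429448_s_at it was 11.9%, with 59.9% for doxycycline.

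**Figure D4:**
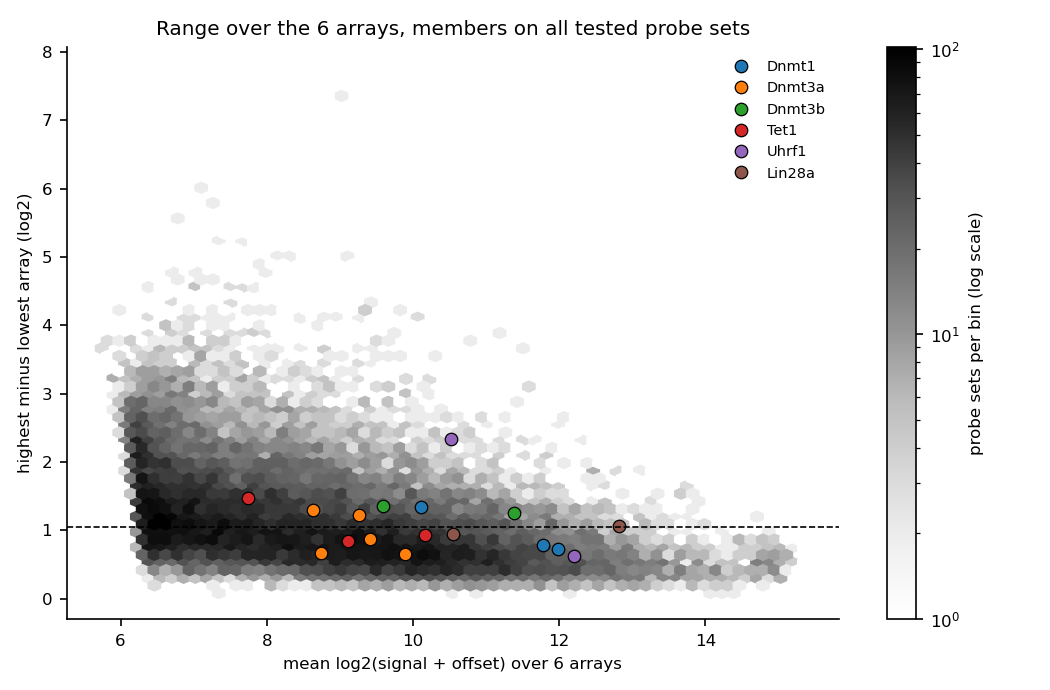
Range over the 6 arrays (highest minus lowest, log2) against mean log2 signal for all 27022 tested probe sets (grey, darker where more lie) and the 17 member probe sets (coloured by gene). The dashed line is the median range of all tested, 1.05; 9 member probe sets lie under it, and Uhrf1 1415811_at stands highest at 2.34.

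Partners of the methylation enzymes had a median range of 0.65 over the arrays. Of 20 tested genes for cofactors, readers and heterochromatin proteins, 3 were called by the F test: Cdca7, which works with the Hells remodeller, Ezh2, the Polycomb methyltransferase, and Mbd2, a reader of methylated DNA. That is near the share over all represented genes, 14%. Cdca7 was higher in C than in B by 0.99 (adjusted p = 0.0119) and Ezh2 by 0.74 (adjusted p = 0.0219). Mbd2 was lower in C than in B by 1.51 (adjusted p = 0.00731), and its other tested probe set had the opposite sign. None was called for doxycycline, where 10 differences were positive and 10 negative; the smallest p was that of the repair glycosylase Mbd4, with -0.33.

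Genes of active demethylation and base excision repair had 4 calls among 14 tested, beside 14% of all represented genes, and a median range of 0.99. Ung, which removes uracil from DNA, read 1785 and 1482 in A, 853 and 759 in B, then 1321 and 1439 in C. It was higher in A than in B by 1.00 (adjusted p = 0.0402), the same direction as Dnmt3b. Gadd45b, a stress-response gene linked to demethylation, was lower in C than in A by 1.27 (adjusted p = 0.0314). Apobec2, a member of the cytidine deaminase family, was lower in C than in B by 2.24 (adjusted p = 0.0144) at signals of 14.5 to 173.5. None was called for doxycycline, with 6 differences positive and 8 negative, and Gadd45b had the smallest p, with -0.65.

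Methyl donor supply and S phase had 1 gene each called by the F test, beside 14% of all represented genes. Of 10 tested genes of one-carbon metabolism, the called one was Gldc of the glycine cleavage system, higher in C than in B by 1.20 (adjusted p = 0.0133), and the median range was 0.83. Mat2b, a regulatory subunit for the synthesis of the methyl donor, had the smallest doxycycline p, with 0.22. Of 20 tested S phase genes, which matter here because Dnmt1 and Uhrf1 are used at replication, the called one was Ccne1, higher in C than in B by 1.03 (adjusted p = 0.0172). Their median range was 0.74, their median difference between C and B was 0.35, and that between A and B was 0.14. The medians of all tested probe sets for the same differences were 0.07 and 0.08. Dnmt1 1422946_a_at and Uhrf1 1415810_at had 0.57 and 0.40 for C against B, and neither was called (limma adjusted p = 0.0852 and 0.214). The other Dnmt1 probe sets had 0.48 and -0.17, and the other of Uhrf1 had 0.825. The replication helicase gene Mcm2, with F test adjusted p 0.0591, was lowest on the uninduced array of A, at 2644, as both Uhrf1 probe sets were. That array was the lowest for 23.9% of all tested probe sets, while Dnmt1 1435122_x_at and 1447877_x_at were highest there. The flap endonuclease gene Fen1 had the smallest doxycycline p, with -0.49, and was not called.

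Among 21 tested genes of the Lin28 and let-7 axis, 3 differed between experiments, beside 14% of all represented genes, and the median range was 0.91. Hmga2, a chromatin protein gene and a known let-7 target, read 7006 and 7296 in A, 13263 and 12768 in B, then 7394 and 8314 in C (uninduced, then induced). Both arrays of B lay above all others. Hmga2 was lower in C than in B by 0.73 (adjusted p = 0.0133) and lower in A than in B by 0.86 (adjusted p = 0.0172), and its 3 other tested probe sets had the same sign for both. Lin28a 1437752_at was lowest in B. Mycn, a growth regulator, was higher in C than in B by 1.18 (adjusted p = 0.0146), and Ccnd2, a D-type cyclin, by 0.81 (adjusted p = 0.0417). The other 2 Mycn probe sets had the opposite sign for A against B, where the difference of 0.37 was not called. Dicer1, which cuts the hairpins, had the smallest doxycycline p, with -0.41, and was not called.

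Germline genes that promoter methylation is known to keep silent in somatic cells were mostly dim. Of 20 listed genes 18 were named on the array, 3 were bright enough to test, and Mael, Tex101 and Tdrd1 were at or under 18.8 on all 6 arrays. Sycp3, a synaptonemal complex gene, read 506 and 606 in A, 422 and 307 in B, then 123 and 132 in C. It was lower in C than in B by 1.37 (adjusted p = 0.0228) and lower in C than in A by 1.97 (adjusted p = 0.013). Ddx25, an RNA helicase of spermatids, was higher in C than in B by 1.46 (adjusted p = 0.0107), so the 2 genes moved in opposite directions. Asz1, the third tested gene, stayed between 39.1 and 87.6, and none was called for doxycycline.

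The marker lists spanned wider ranges than the members over the same arrays. The median range was 2.04 for pluripotent and epiblast markers, 3.85 for neural, 2.51 for early mesoderm, 2.96 for blood, 3.96 for endothelial, 2.38 for cardiac, 3.21 for endoderm, 2.95 for mesenchymal and 1.40 for primordial germ cell markers. All 6 tested member genes had ranges under each of these medians by their representative probe sets, the highest being 1.25 for Dnmt3b. Sox2, shared by pluripotent and neural cells, was higher in C than in B by 3.97 and in A than in B by 3.15 (adjusted p = 7.8e-05 and 0.00187). Lin28a differed by 0.35 and 0.76 in the same contrasts without a call. The medians are given as a description of these lists.

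**Figure D5:**
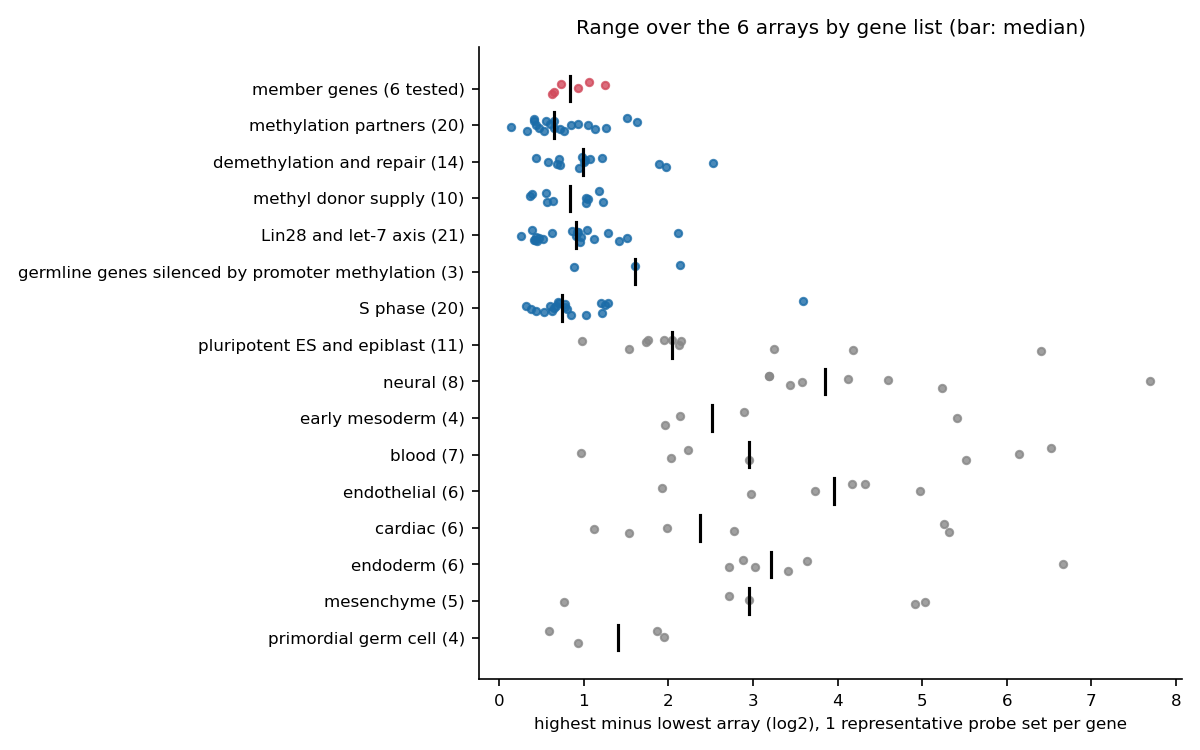
Range over the 6 arrays (log2) of the tested member genes (red), the pathway lists (blue) and the cell type marker lists (grey), 1 representative probe set per gene; the bar is the list's median and the number of tested genes is in brackets. Members lie between 0.63 and 1.25, and all 9 marker medians lie above them, from 1.40 to 3.96.

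Other genes on the array had nearly the pattern of Dnmt3b or Lin28a over the 6 arrays. After centring each gene on its own mean, likeness was taken as the root mean square difference of log2 values over 6 arrays, searched among 12451 genes for the members whose range passed 1. For Dnmt3b, whose own deviation was 0.46, the nearest were Cep70 (0.04), a centrosomal protein gene, Bdp1 (0.05), a transcription factor subunit of RNA polymerase III, and Nup54 (0.08), a nuclear pore gene. Cep70 read 656 and 531 in A, 295 and 334 in B, then 336 and 267 in C, high in A in the same way. For Lin28a, with an own deviation of 0.35, they were Sipa1l3 (0.05), Zfp367 (0.05) and Zcrb1 (0.07). Sipa1l3 read 967 and 588 in A, 439 and 456 in B, then 565 and 550 in C, with its highest signal on the uninduced array of A. Likeness over so few arrays is a description only.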

How the data were processed

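The 7 genes, the gene lists and the tests were chosen with earlier results of these data known. The deposited values are linear intensity values per probe set, and the submitters' processing notes name MAS5; neither a version nor settings are stated there. On every array the mean of the deposited intensities, after 2% was trimmed from each end, was 500, and no further normalization was applied. Probe sets were named through the platform annotation, updated by Entrez ID to RefSeq (GRCm38.p6): 34945 of 45037 had 1 gene, 34741 of these a current symbol, 932 several genes and 9160 none. The 64 control probe sets were left out.

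Tests used limma 3.58.1 in R 4.3.3 on log2(intensity + 18.8), an offset taken at percentile 20 over all signals, which understates fold changes of dim probe sets. Probe sets with a mean under 60.5, the 40th percentile, were not tested. Spread followed signal level (eBayes with trend), tests were two-sided, intervals are 95%, and p-values were adjusted by Benjamini-Hochberg over all 27022 tested probe sets with a threshold of 0.05. Doxycycline was tested between treatment means, without the experiment as a block. The doxycycline intervals of single probe sets are from this fit unless the block is named. Experiments were tested with experiment and doxycycline as terms. A gene's representative is its tested probe set with the highest mean. The text names all member probe sets, up to 3 genes per list with the smallest F test p and 1 with the smallest doxycycline p, the 3 nearest genes to members of range over 1, and Hoxb4.

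The letters A, B and C pair the arrays. Sample titles name each array as replica A, B or C, and 1 letter is taken here as 1 experiment. Deviations from the treatment means correlated by 0.45, 0.67 and 0.66 within letters and by -0.53 to -0.12 between them. Nothing in the labels says whether the experiments used separate thaws or days. The scripts were tested on simulated data. Alternatives were other offsets, filters, scalings and variance models, the replicate block, the mean of a gene's probe sets and leaving out arrays.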

Additional observations from a re-analysis of the deposited data

How the results depend on the processing

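No doxycycline call appeared, among members or among all tested probe sets, under any alternative run, and the replicate block left both counts at 0 and changed no call. The count of members that differed between experiments, 4, was 2 with no filter, 0 with eBayes without trend, and 0 to 14 when single arrays or whole experiments were left out. Over all tested probe sets the count of 3138 was 1186 with eBayes without trend and ran from 1098 to 13806 with arrays left out. The counts rose when an array of A was left out and fell when one of B or C was. With 1 array left out few residual degrees of freedom remain, and the experiment left with 1 array adds nothing to the estimate of spread. Those counts therefore cannot be set beside the main ones.

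Directions of small differences were not stable. Leaving out arrays gave doxycycline differences from -0.156 to 0.179 for Dnmt1, -0.467 to 0.162 for Dnmt3b, -0.101 to 0.231 for Uhrf1 and -0.451 to 0.081 for Lin28a. In this fit without a block, leaving out 1 array left its experiment in 1 treatment only. Leaving out whole experiments gave -0.292 to -0.103 for Dnmt3b and -0.33 to -0.025 for Lin28a, without a change of sign. For Dnmt1 it gave -0.077 to 0.163 and for Uhrf1 -0.101 to 0.183. Leaving out arrays gave differences between C and B from -0.203 to 0.147 for Dnmt3b, -0.264 to 0.370 for Tet1 and, untested, 0.127 to 1.722 for Dnmt3l. With the mean of the gene's probe sets, the doxycycline difference of Dnmt1 was -0.147 and the C against B difference of Dnmt3b 0.306. The cause was not tested. The C against B differences of Dnmt1, Uhrf1 and Lin28a passed the test without arrays of A, where A adds nothing to the estimate of spread. The untested doxycycline difference of Dnmt3l ran from -0.951 to 0.086 with arrays left out. Signal near background limits Dnmt3l and the dimmest Tet1 probe set.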

Other observations

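The paralogs of 2 members, chosen here after their values were seen, had levels of their own. Lin28b, the second Lin28 gene, read 217.7 and 121.0 in experiment A, 35.8 and 37.6 in B, then 101.1 and 45.0 in C (uninduced, then induced). Both arrays of B were lowest, as for Lin28a 1437752_at. The other Lin28a probe set, 1421749_at, differed, with uninduced A (1077.5) under uninduced B (1527.6). For Lin28b limma's F test over experiments did not pass (adjusted p = 0.078). Tet2, a second methylcytosine oxidase, read 458.3 and 560.6 in A, 820.2 and 672.3 in B, then 538.3 and 417.9 in C. Both arrays of B were highest, and the F test did not pass (adjusted p = 0.2). Hells, the remodeller that works with Cdca7, read 4447 and 4558 in A, 2748 and 2676 in B, then 3991 and 3423 in C, with B lowest in both treatments (adjusted p = 0.0506).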
